A study of Mus musculus with 8 samples.

Results

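The imprinted gene clusters were 8 stretches of the mouse genome that hold H19 and Igf2, Kcnq1ot1 and Cdkn1c, Dlk1 and Meg3, Peg3, Igf2r, Gnas, Grb10 and Mest. Their members were all listed peaks of H3K4me3 (trimethylated lysine of histone H3 near active promoters) or H3K27me3 (a repressive mark) that overlapped these stretches by at least 1 bp, in mm9 positions. For each mark, peaks that overlapped between its 4 libraries were joined into regions, which gave 53 member regions of 81219 in all: 31 of 54585 H3K4me3 regions and 22 of 26634 H3K27me3 regions. The cells were germline stem cells from testis, the cultured form of spermatogonial stem cells. They came from wild type Green mice, whose line is written C57BL/6 Tg14(act-EGFP)OsbY01 and expresses a green fluorescent protein, and the background was DBA/2. Culture lasted about 5 months (5M) or about 60 months (60M), and the medium of both ages held GDNF and FGF2 besides fetal bovine serum. Each mark and age had 2 chromatin immunoprecipitation sequencing libraries, from chromatin fixed with formaldehyde and sonicated, with micrococcal nuclease in some libraries that are not named. It is not stated that the 2 are independent cultures, and p-values then measure only a spread that may be technical. Markers of spermatogonial stem cells were not examined, because no mm9 gene annotation was used. For the same reason a peak below is placed by its position in the named cluster and not at an exon, intron or promoter of a gene.

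Imprinted genes are expressed mainly from the allele of one parent, and each cluster is governed by a control region whose DNA methylation is set in the germ line. In male germ cells the H19/Igf2 and Dlk1/Meg3 control regions are normally methylated, and those of Kcnq1ot1, Peg3, Igf2r, Gnas, Grb10 and Mest are normally unmethylated. H3K4me3 is a mark of active or poised promoters that is mostly found on unmethylated CpG-rich DNA. H3K27me3 is laid down by Polycomb repressive complex 2, and promoters with both marks are called bivalent. Several of the genes act on growth in opposite directions. Igf2 encodes a growth factor and Dlk1 a membrane protein that restrains differentiation, while Cdkn1c encodes a cell cycle inhibitor, Igf2r a receptor that clears IGF2, and Grb10 an adaptor that dampens insulin and IGF signalling.

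Promoter windows are shown for genes of 4 clusters whose listed regions or signal differed between ages or libraries. Such differences were also seen in the other clusters, so they do not set these 4 apart. RefSeq windows of 300 bases (250 before and 50 after a transcription start, GRCm38.p6) were matched by symbol for 8 of the 10 genes of the rule, and for Kcnq1ot1 and Airn. That build is not the one the lists follow, so the windows cannot be placed on the listed peaks. CpG dinucleotides, where DNA methylation occurs, are in capitals.
Peg3 (chr7:6730370-6730669, minus strand): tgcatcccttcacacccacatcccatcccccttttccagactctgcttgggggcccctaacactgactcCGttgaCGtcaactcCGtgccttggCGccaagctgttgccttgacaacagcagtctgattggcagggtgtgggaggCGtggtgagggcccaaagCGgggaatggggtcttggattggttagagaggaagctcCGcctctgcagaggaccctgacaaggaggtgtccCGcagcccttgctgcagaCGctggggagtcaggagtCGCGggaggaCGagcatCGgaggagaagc
Dlk1 (chr12:109452573-109452872, plus strand): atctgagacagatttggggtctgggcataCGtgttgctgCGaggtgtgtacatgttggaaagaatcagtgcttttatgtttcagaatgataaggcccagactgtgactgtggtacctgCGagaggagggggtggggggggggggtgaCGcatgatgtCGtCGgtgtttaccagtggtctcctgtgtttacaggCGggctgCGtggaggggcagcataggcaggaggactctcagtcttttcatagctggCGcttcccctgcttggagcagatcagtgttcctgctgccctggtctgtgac
Meg3, first window (chr12:109540746-109541045, plus strand): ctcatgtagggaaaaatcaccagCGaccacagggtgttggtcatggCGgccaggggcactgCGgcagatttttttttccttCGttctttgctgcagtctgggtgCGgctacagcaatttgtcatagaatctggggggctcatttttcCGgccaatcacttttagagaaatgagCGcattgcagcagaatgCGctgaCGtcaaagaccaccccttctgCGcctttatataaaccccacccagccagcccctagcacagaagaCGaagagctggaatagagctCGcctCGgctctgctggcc
Igf2r (chr17:12769657-12769956, minus strand): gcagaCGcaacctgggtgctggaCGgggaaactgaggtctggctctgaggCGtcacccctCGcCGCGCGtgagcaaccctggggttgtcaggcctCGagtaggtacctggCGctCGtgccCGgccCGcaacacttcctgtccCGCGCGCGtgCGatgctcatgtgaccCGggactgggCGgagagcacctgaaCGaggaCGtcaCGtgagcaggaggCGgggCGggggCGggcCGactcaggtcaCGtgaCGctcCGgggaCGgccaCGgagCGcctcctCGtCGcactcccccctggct
Grb10, upstream window (chr11:12037371-12037670, minus strand): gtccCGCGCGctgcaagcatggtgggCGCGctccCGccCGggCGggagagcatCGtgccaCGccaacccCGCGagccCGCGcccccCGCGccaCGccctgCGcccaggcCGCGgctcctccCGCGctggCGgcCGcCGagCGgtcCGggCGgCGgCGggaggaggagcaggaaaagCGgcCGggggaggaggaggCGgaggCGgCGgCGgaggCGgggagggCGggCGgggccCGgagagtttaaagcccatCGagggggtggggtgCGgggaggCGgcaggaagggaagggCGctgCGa
Grb10, downstream window (chr11:12027922-12028221, minus strand): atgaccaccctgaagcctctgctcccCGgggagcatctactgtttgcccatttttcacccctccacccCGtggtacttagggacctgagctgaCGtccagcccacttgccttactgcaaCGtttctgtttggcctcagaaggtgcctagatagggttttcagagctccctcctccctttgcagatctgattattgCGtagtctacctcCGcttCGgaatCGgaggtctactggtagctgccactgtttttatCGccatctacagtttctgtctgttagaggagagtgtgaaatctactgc
The upstream Grb10 window held 45 CpG dinucleotides and the downstream one 9, against a median of 7 over the 32851 windows of the table. The Igf2r window held 34, the Peg3 and first Meg3 windows 13 each, and the Dlk1 window 9. The Airn window of the Igf2r cluster held 3 and another Meg3 window 1, and these are not shown. The hexamer TGCCGC, which the imprint-maintaining factor ZFP57 recognises when methylated, was searched on both strands. It lay in 5 of the 20 windows of the cluster genes (25%) and in 11.6% of all windows. The hexamer itself holds a CpG, and the 20 windows had a median of 13.5 CpG dinucleotides against 7. Some of the 20 overlap each other, and the difference in shares was not tested. The 5 were the upstream Grb10, first Meg3, one Igf2 and both overlapping Mest windows.

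H3K4me3 in the clusters was listed mostly in all libraries, and few regions were listed at 1 age only. Of the 31 H3K4me3 member regions, 27 (87.1%) were listed in all 4 libraries, against 64.5% of all H3K4me3 regions. Regions at 5M only, meaning in each 5M list and no 60M list, numbered 3 (9.68%), close to the 10.1% over the whole genome. Regions at 60M only numbered 0, against 4.46%. One further region was listed in a single 5M library. For H3K27me3, 8 of 22 member regions (36.4%) were listed in all 4 libraries, against 18.6% over the genome. The counts of H3K27me3 regions at 5M only and at 60M only were both 0, against 6.02% and 4.39%, and the other 14 disagreed between libraries of an age, 10 of them being in a single library. The 8 lists held 27 to 32 member peaks for H3K4me3 and 11 to 17 for H3K27me3, out of 41637 to 47415 and 12002 to 14940 peaks in all. Read totals are not in the lists, so depth is unknown, and a peak that was not listed may still carry some of the mark.

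**Figure D1:**
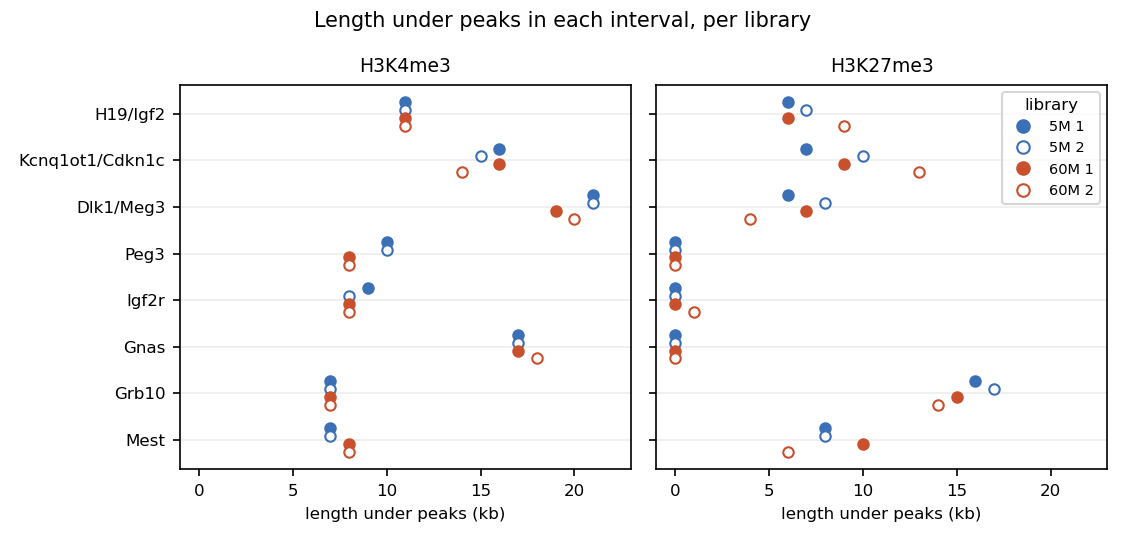
Length under listed peaks (kb, horizontal axis) in each of the 8 clusters for H3K4me3 (left) and H3K27me3 (right). Each point is one library (blue 5M, red 60M, filled library 1, open library 2); the Peg3 points for H3K4me3 lie at 10 kb (5M) and 8 kb (60M), while Peg3 and Gnas lie at 0 for H3K27me3.

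The member regions listed in all 4 libraries had a higher median strength than all such regions of the genome, which is given as a description with no test. Strength is the maximum immunoprecipitation signal of a peak, given by the authors and expressed as a percentile within its own list. The median percentile over the 27 H3K4me3 members was 72.1, against 59.4 over all 35229 regions listed in all 4 libraries, and 9 of the 27 (33.3%) had a mean percentile over 90, against 12.4% of all. The strongest region of each cluster had a mean percentile of 98.9 at Gnas, 95.8 at Peg3, 95.3 at Kcnq1ot1/Cdkn1c, 93.2 at Grb10, 92.5 at H19/Igf2, 90.5 at Mest, 90.1 at Igf2r and 78.4 at Dlk1/Meg3. For H3K27me3 the 8 shared members had a median of 89.0 against 72.5, with the highest value, 98.3, at Grb10. The position of the maximum was the same 1 kb bin in all 4 libraries for 17 of the 27 H3K4me3 members and lay within 1 kb for 25. For H3K27me3 it was the same bin for 2 of 8 and within 1 kb for 5, with shifts of up to 4 kb.

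No shared member passed the test of a signal difference between the ages. To compare libraries, signal maxima were quantile normalized over the shared regions of a mark, which keeps only their ranks, and fitted with limma over all of them. At an adjusted p below 0.05 limma called 0 of 27 H3K4me3 and 0 of 8 H3K27me3 members, against 1.44% and 2.96% of all shared regions. By direction, limma called 0.823% of all H3K4me3 regions as higher and 0.622% as lower at 60M, and 0.766% and 2.2% of all H3K27me3 regions. At an unadjusted p below 0.05 the counts were 10 of 27 and 2 of 8, against 26.7% and 19.9%. The ages did not overlap at 12 H3K4me3 members with both 60M libraries higher (44.4%, against 30.2% of all) and at 6 with both lower (22.2%, against 32.4%). The 12 include a region at the edge of the Kcnq1ot1/Cdkn1c interval that is a member only through its 60M peaks, and without it they were 11 of 26 (42.3%), with 9 of 26 at an unadjusted p below 0.05. These counts hold for quantile normalization and were not repeated with libraries centred on their medians. Under median centring strong regions among the 12 turned sign, at Gnas (0.04 to -0.19) and H19/Igf2 (0.10 to -0.12). The others of the 12 whose median-centred values were examined kept theirs. Those values were not examined at chr7:150623000-150624999, chr7:150644000-150647999 and chr7:150649000-150652999, so more regions may turn sign. For H3K27me3 1 member was higher (12.5%, against 26.8%) and 4 were lower (50%, against 24.6%). The median log2 difference (60M minus 5M) was 0.03 over the H3K4me3 members and -0.01 over all shared regions, and for H3K27me3 it was -0.04 and 0.02. The fit depended on the libraries. Without either 60M library, limma called more H3K4me3 regions, both over all shared regions and among the members. Without either 5M library it called fewer over all shared regions. Such a fit leaves 1 library at an age, which is assumed to vary like the pair of the other age. Its calls are therefore not read as results for the members.

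**Figure D2:**
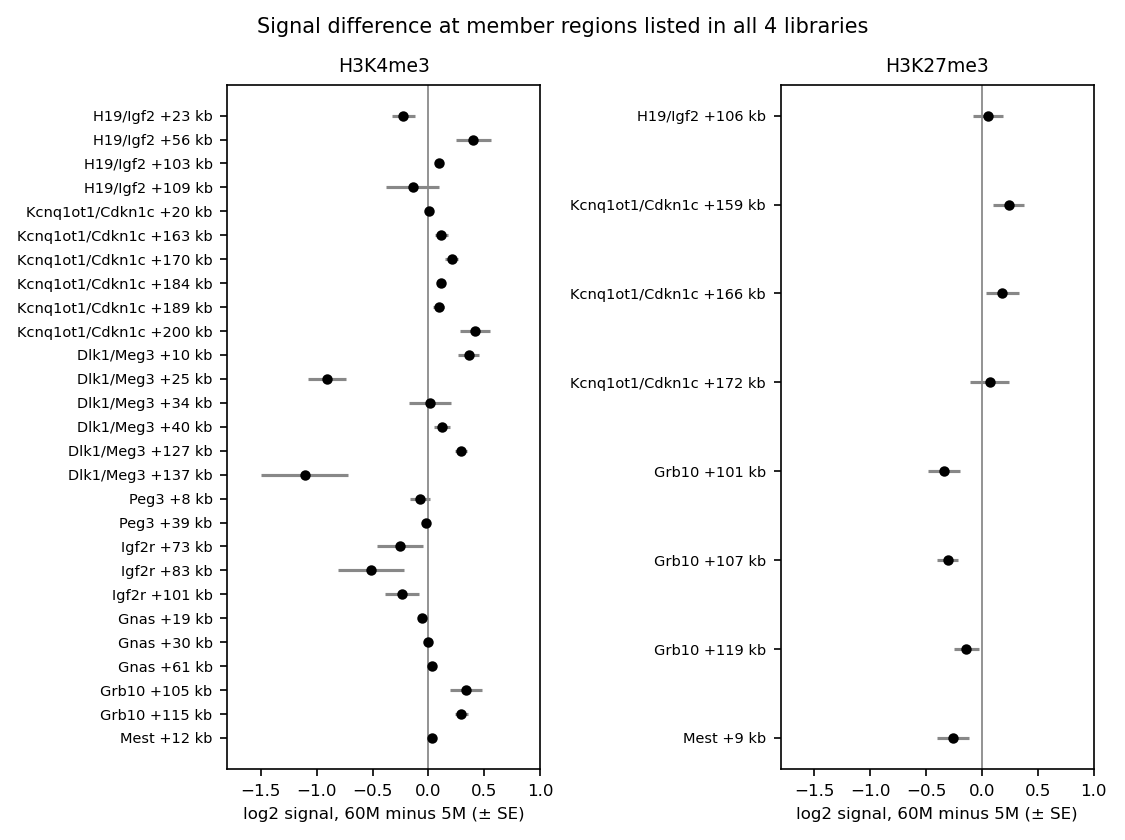
Difference in log2 quantile-normalized signal, 60M minus 5M, with its standard error (horizontal axis) for the 27 H3K4me3 (left) and 8 H3K27me3 (right) member regions listed in all 4 libraries, named by cluster and distance from the start of the cluster's interval. The lowest points are 2 Dlk1/Meg3 H3K4me3 regions at -1.11 and -0.91, and all 3 Grb10 H3K27me3 points lie below 0.

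The Peg3 interval (chr7:6640000-6700000) had 1 H3K4me3 region listed only at 5M beside a stronger one listed at both ages. Peg3 encodes a zinc finger protein and is paternally expressed. A 2 kb region at chr7:6663000-6664999 had a signal maximum of 385.5 in 5M library 1 and 395.6 in 5M library 2, the 73.3rd and 75.6th percentiles of those lists. It was listed in neither 60M library. In those lists 5% of the peaks had maxima below 45.5 and 46.8. The scaling of the signal is not given and depth is unknown, so these values do not show whether the region could have been listed. The region ranked 7 of the 5509 H3K4me3 regions listed at 5M only, whose median percentile was 21.7. It remained 5M-only with peaks within 1 kb merged. A stricter peak threshold and equal list lengths only remove peaks, so no 60M peak could appear, and both 5M peaks stayed listed. Leaving out any 1 library cannot change this state. Whether fewer cells or alleles carried the mark, or less of it was present in each, cannot be told apart in bulk chromatin.

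The main Peg3 region, 6 kb at chr7:6679000-6684999, covered 6 kb in every library. Its normalized maxima were 670.8 and 661.1 at 5M and 651.6 and 661.4 at 60M. The ages overlapped there, with a log2 difference of -0.02 ± 0.02 (SE; limma, adjusted p = 0.547; -0.24 with median centring). A weaker region at chr7:6648000-6649999 was listed in all 4 libraries at the 54.5th to 59.5th percentiles. H3K4me3 peaks covered 10 kb of the interval in each 5M library and 8 kb in each 60M library (exact two-sided permutation test, p = 0.333, the smallest that 2 against 2 allow). H3K27me3 was not listed in the Peg3 interval in any library.

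The Mest interval (chr6:30670000-30710000) carried both marks at both ages. Mest encodes a hydrolase-like protein of mesoderm and is paternally expressed. Its one H3K4me3 region, chr6:30682000-30690999, had normalized maxima of 584.8 and 579.5 at 5M and 575.9 and 616.3 at 60M. These overlapped, with a log2 difference of 0.03 ± 0.04 (SE; limma, adjusted p = 0.587), which became -0.18 when libraries were median centred instead. Its peaks covered 7 kb in each 5M library and 8 kb in each 60M library, as a single peak in 60M library 2 and as a pair of peaks in the others. H3K27me3 at chr6:30679000-30687999 had normalized maxima of 81.4 and 78.1 at 5M and 74.3 and 59.9 at 60M. Both 60M libraries were lower, mainly library 2, and the difference of -0.26 ± 0.15 did not pass (SE; limma, adjusted p = 0.349). It was -0.0982 without 60M library 2 and -0.41 without 60M library 1. The length with both marks in each library of an age summed to 4 kb at 5M and 3 kb at 60M, over more than one piece.

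The H19/Igf2 interval (chr7:149740000-149870000) held 4 H3K4me3 regions, all listed in all 4 libraries. H19 encodes a long noncoding RNA that is expressed from the maternal allele, opposite to Igf2. The strongest, chr7:149843000-149847999, had normalized maxima of 586.7 and 600.3 at 5M and 625.9 and 642.5 at 60M. Both 60M libraries were higher, with a log2 difference of 0.10 ± 0.03 (SE; limma, adjusted p = 0.117). It was 0.08 to 0.11 with any 1 library left out, but with median centring the sign turned to -0.12. A weak region at chr7:149796000-149797999, between the outer regions of the interval, had 106.4 and 104.9 at 5M against 151.6 and 128.3 at 60M. That difference was 0.40 ± 0.16 (SE; limma, adjusted p = 0.184). The region at chr7:149763000-149764999 went the other way, with 246.9 and 263.2 against 228.8 and 208.3 and a difference of -0.22 ± 0.10 (SE; limma, adjusted p = 0.218).

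H3K27me3 in this interval lay beside the strongest H3K4me3 region. The shared H3K27me3 region chr7:149846000-149852999 overlapped it and the neighbouring H3K4me3 region at chr7:149849000-149850999. Its normalized maxima were 72.3 and 69.8 at 5M and 70.7 and 76.9 at 60M, which overlapped. The length with both marks summed to 3 kb at each age, in pieces of 1 kb and 2 kb. Of the other H3K27me3 regions, both were listed only in 60M library 2, at the 67.3rd and 27.6th percentiles.

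The Dlk1/Meg3 interval (chr12:110650000-110830000) held the largest number of H3K4me3 members, 8, and the shared ones differed in both directions. Meg3 encodes a maternally expressed noncoding RNA, opposite to Dlk1. The strongest region, chr12:110690000-110692999, had normalized maxima of 439.8 and 423.4 at 5M and 439.1 and 502.6 at 60M, and the ages overlapped (log2 difference 0.12 ± 0.07, SE; limma, adjusted p = 0.318). Leaving out 60M library 1 gave 0.22, leaving out 60M library 2 gave 0.0269, and median centring gave -0.0451. The region chr12:110777000-110781999 had 337.0 and 351.4 at 5M and 431.9 and 411.5 at 60M. Both 60M libraries were higher, by 0.29 ± 0.06 on the log2 scale (SE; limma, adjusted p = 0.0700). The difference was 0.25 to 0.35 with any 1 library left out. With median centring it was 0.19. The region chr12:110787000-110788999, 5 kb further on, had 275.9 and 269.0 at 5M and 193.8 and 82.5 at 60M. Both 60M libraries were lower there, with a difference of -1.11 ± 0.39 (SE; limma, adjusted p = 0.159) that was -0.50 without 60M library 2 and -1.70 without 60M library 1. Leaving out 5M library 1 gave -1.07 and leaving out 5M library 2 gave -1.11.

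Towards the other end of the Dlk1/Meg3 interval, regions differed in covered length as well as in strength. At chr12:110675000-110676999 the peaks were 2 kb wide in both 5M libraries and 1 kb in both 60M libraries, and the normalized maxima were 160.9 and 190.9 against 86.1 and 101.2. The difference was -0.91 ± 0.17 (SE; limma, adjusted p = 0.0665), the lowest adjusted p among the members. It passed with median centring at -0.78 (limma, adjusted p = 0.0491). With any 1 library left out it was -1.02 to -0.77. At chr12:110660000-110663999 peaks covered 2 or 3 kb at 5M and 4 kb in each 60M library. The maxima were 193.0 and 198.1 against 250.1 and 252.3, a difference of 0.36 ± 0.09 (SE; limma, adjusted p = 0.102). With any 1 library left out this difference was 0.33 to 0.38. Of all 27 shared H3K4me3 members, 4 had a longer covered length in both 60M libraries (14.8%, against 7.43% of all shared regions) and 1 a shorter one (3.70%, against 2.49%). Without the region at the edge of the Kcnq1ot1/Cdkn1c interval, whose length decided its membership, 3 of 26 were longer (11.5%). For H3K27me3 1 of 8 was longer (12.5%, against 8.28%) and 1 shorter (12.5%, against 16.7%).

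Near one Dlk1/Meg3 region both marks were listed at 5M and neither in both libraries at 60M. The H3K4me3 region chr12:110697000-110698999 had signal maxima of 111.2 and 121.6 at 5M (33.2nd and 36.6th percentiles) and was not listed at 60M. H3K27me3 at chr12:110693000-110698999 reached into it in both 5M libraries, with maxima of 60.3 and 83.3 and widths of 5 and 6 kb. In 60M library 1 it was 2 kb wide with a maximum of 55.8, and in 60M library 2 it was not listed. None of the 7 H3K27me3 regions in the interval was listed in all 4 libraries. H3K4me3 peaks covered 21 kb of the interval in each 5M library, 19 kb in 60M library 1 and 20 kb in 60M library 2 (exact two-sided permutation test, p = 0.333). Peg3, Dlk1/Meg3 and Mest were the 3 intervals whose ages did not overlap in this length. Both 60M libraries were lower in 2 of 8 intervals (25%) and higher in 1 (12.5%). Over all 100 kb windows with an H3K4me3 peak, 18.4% were lower and 13.4% higher, while the intervals were 40 to 200 kb long.

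**Figure D3:**
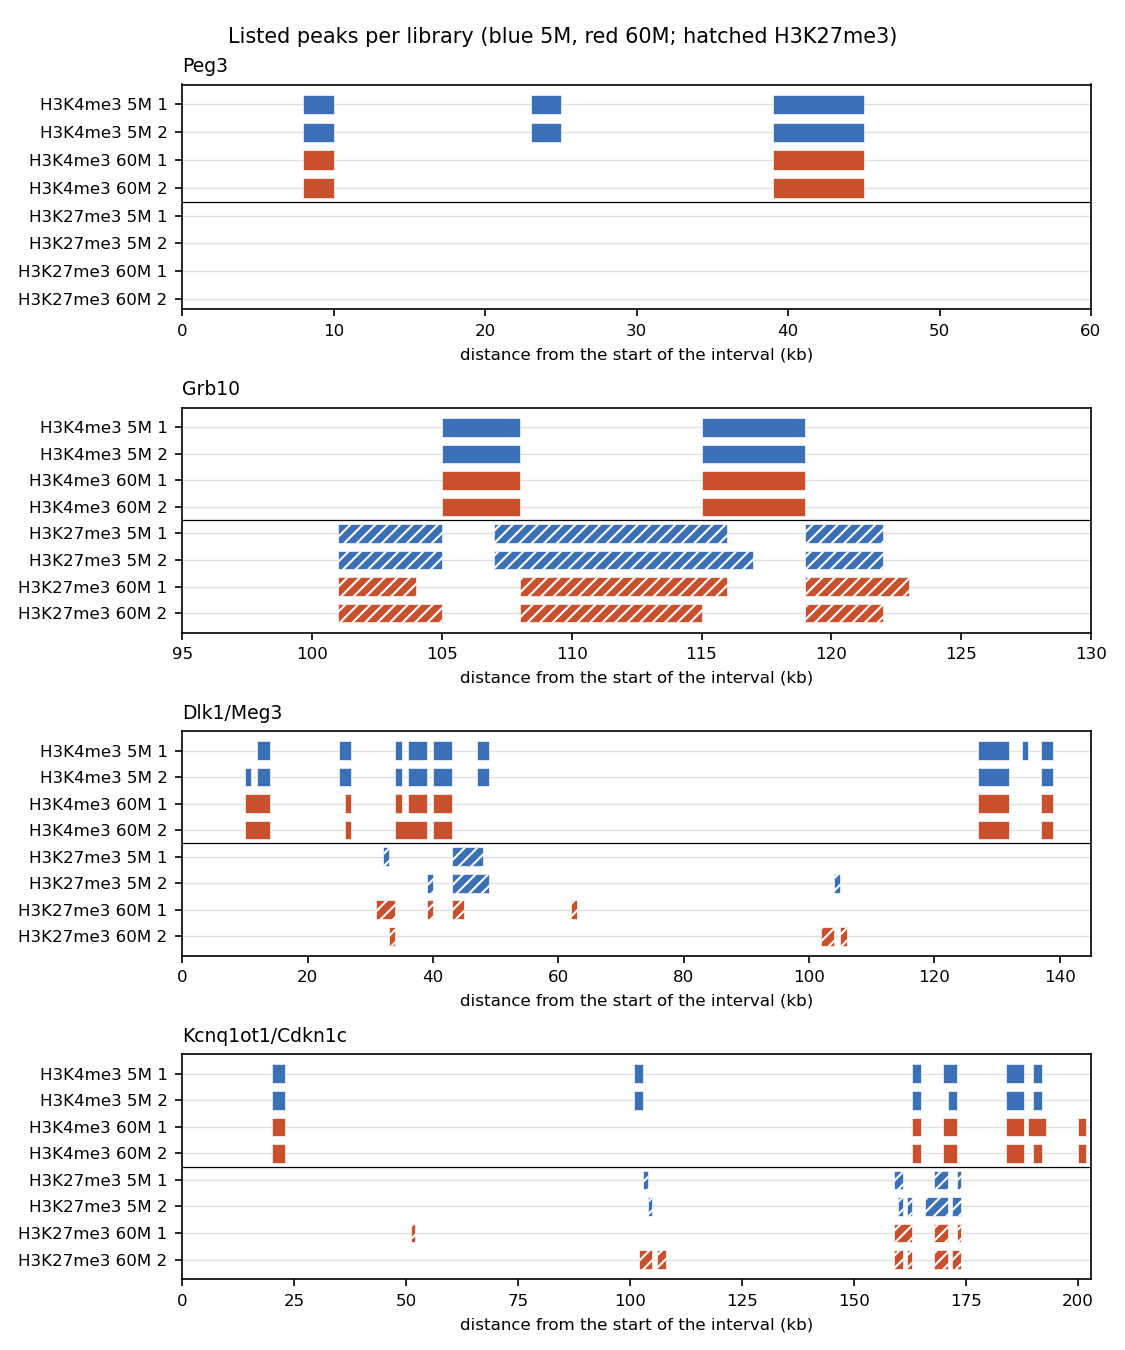
Listed peaks of each library along 4 of the clusters, by distance from the start of the interval (kb, horizontal axis; for Grb10 the part with peaks is shown). Each row is a library, plain bars are H3K4me3 and hatched bars H3K27me3, blue is 5M and red 60M; the Peg3 bar 23 kb from the start is present in the 5M rows and absent from the 60M rows, and the Grb10 marks alternate along the interval. Only peaks that reach into an interval are drawn, so the 5M peaks of the region at the end of Kcnq1ot1/Cdkn1c are not shown.

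The Kcnq1ot1/Cdkn1c interval (chr7:150460000-150660000) held 7 H3K4me3 regions, 6 of them listed in all 4 libraries. The strongest had overlapping ages. The other 5 shared ones had higher maxima in both 60M libraries after quantile normalization, but 1 of them is a member only through its 60M peaks. With median centring the strongest region had a log2 difference of -0.22. Those of the 5 whose median-centred values were examined stayed positive, the lowest at 0.07. The rest, chr7:150644000-150647999 among them, were not examined, so their direction is known for quantile normalization only. None of the 6 passed the limma test over all libraries. Kcnq1ot1 is a paternally expressed noncoding RNA that silences its neighbours on the same chromosome, Cdkn1c among them. The strongest region, chr7:150480000-150482999, had normalized maxima of 659.6 and 642.1 at 5M and 648.9 and 658.3 at 60M, with a difference of 0.01 ± 0.02 (SE; limma, adjusted p = 0.881). The region chr7:150644000-150647999 had 598.1 and 623.9 at 5M and 648.6 and 673.2 at 60M, so both 60M libraries were higher after normalization. Before it the maxima overlapped, with 629.3 and 620.1 at 5M and 662.2 and 628.2 at 60M. The region at the edge of the interval, chr7:150660000-150661999, covered 2 kb in each 60M library and 1 kb in each 5M library, with maxima of 128.3 and 130.4 against 182.3 and 163.2 and a difference of 0.42 ± 0.13 (SE; limma, adjusted p = 0.140). It begins at the last base of the interval, which only the 60M peaks reached, so its membership rests on them. A weak H3K4me3 region at chr7:150561000-150562999 was listed at 5M only, with signal maxima of 124.6 and 131.9 (36.9th and 39.3rd percentiles).

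H3K27me3 in the Kcnq1ot1/Cdkn1c interval was listed in all 4 libraries at 3 regions, chr7:150619000-150622999, chr7:150626000-150630999 and chr7:150632000-150633999. They surrounded the H3K4me3 regions at chr7:150623000-150624999 and chr7:150630000-150632999. The strongest of the 3 had normalized maxima of 67.3 and 79.2 at 5M and 75.6 and 90.7 at 60M, and the ages overlapped. Peaks in the first of them covered 4 and 3 kb at 60M against 2 kb in each 5M library. The H3K4me3 region at chr7:150630000-150632999 carried both marks in all 8 libraries. The H3K4me3 maxima of this region were 377.4 and 400.4 at 5M and 433.4 and 465.8 at 60M. That was a difference of 0.21 ± 0.06 (SE; limma, adjusted p = 0.118), or 0.16 to 0.27 with any 1 library left out. With median centring it was 0.0704 (limma, adjusted p = 0.455). Beside the H3K4me3 region listed at 5M only, H3K27me3 at chr7:150562000-150564999 was 1 kb wide in each 5M library, not listed in 60M library 1 and 3 kb wide in 60M library 2.

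In the Igf2r interval (chr17:12860000-12980000) the 60M libraries stood apart from each other. The interval also holds Airn, the noncoding RNA that silences Igf2r in cis. The region chr17:12961000-12963999 had normalized maxima of 636.5 and 635.7 at 5M, 642.2 in 60M library 1 and 453.3 in 60M library 2. The region chr17:12933000-12936999 had 512.1 and 509.5, then 540.5 and 339.0, and the weak region chr17:12943000-12944999 had 142.8 and 131.5, then 128.3 and 71.6. In all 3, 60M library 2 was the lowest. The differences of -0.24 ± 0.15, -0.25 ± 0.21 and -0.52 ± 0.30 did not pass (SE; limma, adjusted p = 0.356, 0.449 and 0.306). With median centring they were -0.43, -0.39 and -0.39. Without 60M library 2 they were 0.01, 0.09 and -0.06, and without 60M library 1 they were -0.49, -0.60 and -0.89. What set this library apart here was not tested. H3K27me3 was listed once, in 60M library 2 at chr17:12860000-12860999, with a maximum of 22.8 at the 0.38th percentile of its list.

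The Grb10 interval (chr11:11820000-11950000) had the strongest H3K27me3 of the clusters. In both 60M libraries the H3K4me3 maxima were higher and the H3K27me3 maxima lower than at 5M, and none of these differences passed the limma test over all libraries. At chr11:11935000-11938999 the H3K4me3 maxima after normalization were 565.5 and 571.0 at 5M and 654.1 and 741.2 at 60M. Both 60M libraries were higher, by 0.29 ± 0.06 on the log2 scale (SE; limma, adjusted p = 0.0739). The difference was 0.21 to 0.38 with any 1 library left out. With median centring that difference was 0.07. At chr11:11925000-11927999 the maxima were 234.7 and 301.1 against 313.2 and 361.3, with a difference of 0.34 ± 0.14 (SE; limma, adjusted p = 0.203) that was 0.15 without 5M library 1.

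The Grb10 H3K27me3 maxima were lower in both 60M libraries at all 3 regions. At chr11:11927000-11936999 they were 128.5 and 130.8 at 5M and 102.4 and 107.2 at 60M, a difference of -0.31 ± 0.09 (SE; limma, adjusted p = 0.0981), which passed with median centring at -0.47 (adjusted p = 0.0159). The peaks there were 9 or 10 kb wide at 5M, 8 kb in 60M library 1 and 7 kb in 60M library 2. At chr11:11921000-11924999 they were 93.8 and 91.1 against 83.1 and 64.4, and at chr11:11939000-11942999 they were 100.1 and 100.4 against 90.6 and 91.5. The differences of -0.34 ± 0.15 and -0.14 ± 0.11 did not pass (SE; limma, adjusted p = 0.223 and 0.512). The first was -0.15 without 60M library 2 and -0.53 without 60M library 1. H3K27me3 peaks covered 16 or 17 kb of the interval at 5M, 15 kb in 60M library 1 and 14 kb in 60M library 2 (exact two-sided permutation test, p = 0.333), and Grb10 was the 1 of 8 intervals (12.5%) whose ages did not overlap in this length. Over all 100 kb windows with an H3K27me3 peak, 16.8% were lower and 11.3% higher at 60M. The shares are not fully alike, because the intervals were 40 to 200 kb long. Peg3 and Gnas had no H3K27me3 peak and could not differ. Neither mark was compared with the other in one test.

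**Figure D4:**
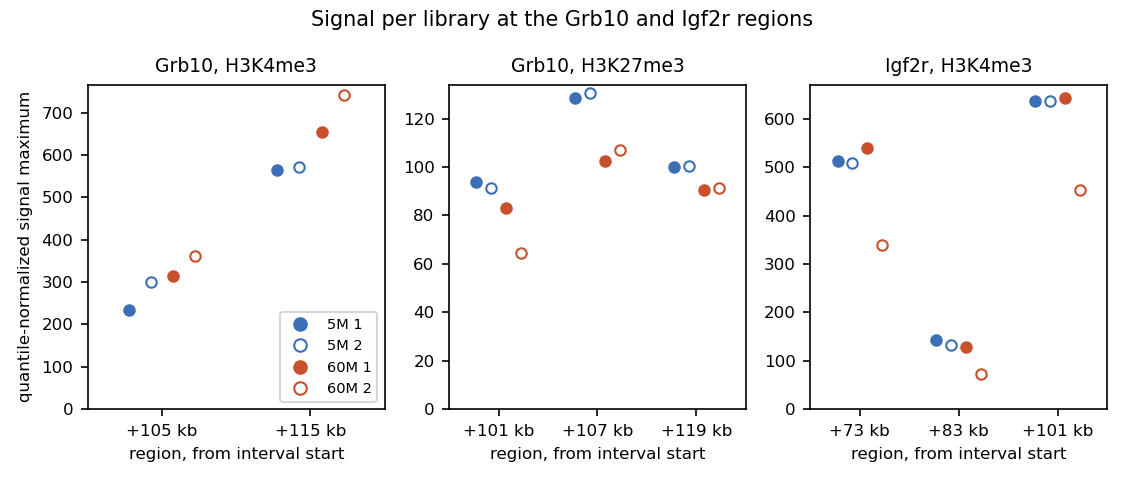
Quantile-normalized signal maximum (vertical axis, from 0) of each library at the Grb10 H3K4me3, Grb10 H3K27me3 and Igf2r H3K4me3 regions listed in all 4 libraries, named by distance from the start of the interval. Blue is 5M and red 60M, filled library 1 and open library 2; at Grb10 both 60M points lie above the 5M points for H3K4me3 and below them for H3K27me3, and at Igf2r the 60M library 2 point is the lowest of each region.

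The Gnas interval (chr2:174090000-174190000) had the strongest H3K4me3 of the 8 clusters, and no H3K27me3 was listed there. The Gnas locus encodes the stimulatory G protein alpha subunit and several alternative transcripts with parent-specific expression. The region chr2:174151000-174156999 had normalized maxima of 712.6 and 723.9 at 5M and 729.1 and 743.7 at 60M, with a difference of 0.04 ± 0.02 (SE; limma, adjusted p = 0.286) that was -0.19 with median centring and 0.0220 without 60M library 2. The peaks there were 5 kb wide in each 5M library and 6 kb in each 60M library. The region chr2:174120000-174126999 covered 7 kb in every library, with maxima of 691.5 and 698.5 against 675.8 and 715.2, which overlapped. The third, chr2:174109000-174113999, had 558.2 and 564.1 against 529.7 and 546.9.

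Both marks overlapped within both libraries of an age in 5 of the 8 clusters, at 5M or 60M. All 8 shared H3K27me3 members overlapped or directly touched a shared H3K4me3 region, against 72.6% of the 4962 shared H3K27me3 regions of the genome, and 5 of them (62.5%) overlapped one, against 56.3%. At 5M, 7 of 30 H3K4me3 members listed in both 5M libraries carried H3K27me3 in both (23.3%, against 7.28% of all). At 60M it was 4 of 27 (14.8%, against 5.53%). The 4 were listed with both marks in all 8 libraries: the Mest region, 2 at H19/Igf2 and 1 at Kcnq1ot1/Cdkn1c. In the last, no 1 kb bin held both marks in both 5M libraries. Over the genome, 4.85% of the H3K4me3 regions of all 4 libraries carried H3K27me3 in all 4. The 3 with both marks at 5M only were the Dlk1/Meg3 region listed at 5M only and both Grb10 regions.

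At Grb10 the overlap differed by single 1 kb bins. The bins with both marks in each 5M library were 2, one in each H3K4me3 region, and 5M library 2 had a further one. At 60M library 1 still overlapped the region chr11:11935000-11938999 while library 2 stopped at its border, and neither reached chr11:11925000-11927999. Summed over the clusters, the lengths listed in each library of an age came to 95 kb of H3K4me3 at 5M and 92 kb at 60M. For H3K27me3 they came to 39 kb and 33 kb, and with both marks to 10 kb and 7 kb. When an overlap of at least 50% of the shorter region was required, 3 members carried both marks at 5M and 2 at 60M. The share over all H3K4me3 regions was not computed under this rule. Shared H3K4me3 members had a median covered length of 3 kb, against 2 kb over all shared regions.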

How the data were processed

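Each library has a peak list deposited by the authors, with borders in bins of 1000 bp. Per the file headers, each peak has a maximum immunoprecipitation signal, 2 columns of −log10 p-values and a q-value. How the deposited signal was scaled, and the peak caller, are not given in the sources used here. Per the submitters' processing notes, CASAVA 1.8.4, Bowtie 1.1.2 and build mm10 were used. Listed positions run past the mm10 ends on 9 of 20 chromosomes and past the mm9 ends on 1 (GenomeInfoDb 1.38.1). The H19/Igf2 and Kcnq1ot1/Cdkn1c intervals lie beyond the end of mm10 chromosome 7, so mm9 was used. Positions are as listed. The peak width column was checked against the borders.

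For each mark, peaks sharing at least 1 bp were joined across its 4 libraries. Regions were named by a rule: the strongest of each cluster, those listed at 1 age only or with both marks, and those that differed in covered length. The members, lists and rules were chosen with earlier results of these data known; further regions were chosen after their values were seen. limma 3.58.1 (R 4.3.3, trend, no pseudocount) was fitted to log2 signal, quantile normalized over regions listed in all 4 libraries, with Benjamini-Hochberg adjustment. The code was tested on simulated data. Lengths were compared with exact two-sided permutation tests (scipy 1.17.1; Python 3.11.15, figures matplotlib 3.10.9). Alternatives were median centring, a replicate block, merging within 1 kb, a −log10 p against the control of at least 6, equal list lengths, a filter on low signal and leaving out each library. Counts restricted to regions mostly inside their interval were added after seeing the data. Cell type markers and the other cluster genes were not analysed here, for lack of an mm9 annotation.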

Additional observations from a re-analysis of the deposited data

How the results depend on the processing

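The counts of 3 H3K4me3 regions at 5M only and 0 at 60M only were the same under merging within 1 kb and the stricter threshold. They were also the same at equal list lengths and when most of a region had to lie inside the interval. Leaving out 1 library gave 3 to 4 and 0. A region listed at 1 age only keeps that state without any 1 library, so such counts could not fall. H3K27me3 regions at 60M only numbered 1 under the stricter threshold. Leaving out 1 library, when the other library of its age decides alone, gave 0 to 1 H3K27me3 regions at 5M only, 0 to 6 at 60M only, and 3 to 5 (H3K4me3) and 2 to 6 (H3K27me3) intervals whose lengths did not overlap. It gave 0 to 11232 limma calls over all H3K4me3 regions, 0 to 12 among the members, and 0 to 3 over all H3K27me3 regions; where 1 library remains, it is assumed to vary like the other age. Requiring an overlap of 50% of the shorter region left 3 member regions with both marks at 5M and 2 at 60M, with no share over all regions computed. Over all regions limma called 509 for H3K4me3 and 147 for H3K27me3. Median centring gave 2353 and 333 calls, with 1 member of each mark. Leaving out the lowest 25% by signal gave 324 H3K4me3 calls. With the replicate number as a block limma called 0 H3K4me3 regions (9697 at an unadjusted p below 0.05) and 133 H3K27me3 regions, and no member. Deviations of same-numbered libraries correlated by 0.08 and 0.02. That cannot settle whether they shared a preparation, and the sample titles give only a number.

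Of 197 alternative log2 differences at 25 named regions, 11 turned sign. The replicate block is balanced and returns the main difference, so it could turn none. With median centring the threshold was passed at chr12:110675000-110676999 for H3K4me3 and chr11:11927000-11936999 for H3K27me3. All other passes came from fits with 1 library left at an age, which are not read as results. Median centring turned Dlk1/Meg3 110690000 to -0.0451, Gnas 174151000 to -0.19, Mest 30682000 to -0.18, H19/Igf2 149843000 to -0.12 and Kcnq1ot1/Cdkn1c 150480000 to -0.22 (named by start). Leaving out 1 library gave -0.60 to 0.0855 at Igf2r 12933000, -0.49 to 0.014 at Igf2r 12961000, -0.0164 to 0.0810 at Mest 30682000, -0.0133 to 0.0255 at Kcnq1ot1/Cdkn1c 150480000 and, for H3K27me3, -0.0012 to 0.12 at H19/Igf2 149846000. The cause was not tested. Depth is unknown, so a peak not listed cannot be read as a mark that is absent.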
